A study of Homo sapiens with 8 samples.

Results

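Transcripts of 10 genes of drug transport were followed in HepG2 cells, 6 encoding efflux pumps of the ABC family and 4 encoding organic anion transporting polypeptides (OATPs, SLCO genes), chosen by symbol from the 60230 gene rows in the table. HepG2 cells come from a human liver carcinoma and are an established line, and in all 4 groups, controls included, the cells overexpressed the drug-metabolizing enzyme CYP3A4. Cells received 0.2% DMSO or 1 of 3 phenolic antioxidants used in plastics for 24 h, namely compound 4 (labelled metylcresol), compound 5 (labelled tetrabut), or compound 6 (labelled cyclohexil), with 2 replicates in each group and 8 libraries of polyadenylated RNA in all. Each compound was given at its own IC50, so the molar doses were not matched. By the paper's values they lay close together, with compound 4 lowest and all 3 under a limit little above it. Compounds 4 and 6 share a methylene bridge between their phenol rings and differ in the group beside the hydroxyl, tert-butyl in compound 4 and cyclohexyl in compound 6. Compound 5 has an ethylidene bridge and tert-butyl groups at both substituted positions of each ring.

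ABC pumps use ATP to move drugs, conjugates, and endogenous metabolites out of the cell, whereas OATPs carry bile acids, hormones, bilirubin, and many drugs into it. In the liver, both families set how much of a drug reaches the metabolizing enzymes and how much is returned to blood or bile. Many of these genes are known targets of xenobiotic-sensing and stress-sensing transcription factors, including PXR, CAR, AHR, and NRF2.

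Compound 5 changed most of these transporters. The pumps ABCB1, ABCC1, and ABCC4 and the uptake carrier SLCO1B3 rose, by between 1.59-fold and 2.75-fold, and ABCC6, SLCO2B1, and SLCO4C1 fell. ABCC1 was called higher with each of the 3 compounds, and its calls with compounds 4 and 6, like that of ABCB1 with compound 5, missed the threshold in some fits with 1 library fewer, in which the direction was kept. SLCO4C1 fell with compounds 4 and 5 to less than 1 CPM (counts scaled by TMM to a common library total, as CPM), and SLCO1B1 was at or near 0 counts in every library.

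The DNA just upstream of 4 of these genes is shown because the members differ there and move differently below. RefSeq promoter windows on GRCh38.p14 were found for 9 of the 10 members, some with several start sites, and the 250 bases before each start were searched on both strands. Capitals mark the motifs found. In ABCC4, which rose with compound 5, and in SLCO4C1, which fell, they mark the core of the antioxidant response element, TGACNNNGC, read on the opposite strand. In the neighbouring genes SLCO1B1, near 0 here, and SLCO1B3, which rose with compound 5, they mark the short repeat unit bound by the hepatocyte factor HNF1, spelled GTTAAT, on either strand. Capitals there also mark the box CCAAT in both genes and a match to the box TATAAA in SLCO1B1. Bases within annotated exons were left out, except in SLCO4C1, whose window lies in the annotated first exon and is shown as 29 bases around the match.
ABCC4, chr13:95301476-95301701, minus strand: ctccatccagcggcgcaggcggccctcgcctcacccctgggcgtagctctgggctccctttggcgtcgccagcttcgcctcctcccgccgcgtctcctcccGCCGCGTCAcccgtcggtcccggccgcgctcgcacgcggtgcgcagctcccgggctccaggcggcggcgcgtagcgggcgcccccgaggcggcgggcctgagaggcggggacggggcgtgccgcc
SLCO4C1, chr5:102296330-102296358, minus strand: ccgcacggggGCGCTGTCAcctgcctgtg
SLCO1B1, chr12:21130944-21131193, plus strand: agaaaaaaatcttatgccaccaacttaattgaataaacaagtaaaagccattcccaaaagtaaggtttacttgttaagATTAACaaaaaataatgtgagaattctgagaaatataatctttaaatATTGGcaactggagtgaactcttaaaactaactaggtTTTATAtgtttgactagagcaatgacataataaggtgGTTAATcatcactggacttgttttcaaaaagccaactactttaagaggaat
SLCO1B3, chr12:20810455-20810701, plus strand: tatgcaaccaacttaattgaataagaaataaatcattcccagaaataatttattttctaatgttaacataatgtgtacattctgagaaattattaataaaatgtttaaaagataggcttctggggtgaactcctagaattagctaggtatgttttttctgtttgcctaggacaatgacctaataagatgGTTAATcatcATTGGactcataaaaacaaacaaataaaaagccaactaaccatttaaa

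The 9 members had 16 windows, since several have more than 1 start site, and matches were counted by window, as in all 35116 promoter windows of the same length. The antioxidant response core was found in 2 of the 16 (12.5%), against 10.9% of all windows. It lay at -149 to -141 from the start site in ABCC4 and at -64 to -56 in SLCO4C1. The HNF1 unit was also found in 2 of the 16, those of the neighbours SLCO1B1 and SLCO1B3, against 6.23% of all windows. Their upstream windows were 67.5% identical, with 187 identical bases over 277 aligned columns. CCAAT was found in 4 of the 16 (25%), against 32.0% of all windows, the GC box (GGGCGG) in 3 of the 16 (18.8%), against 42.6%, and TATAAA in 2 of the 16, against 10.7%. The 3 windows with a GC box belong to 2 of the 9 members, since 2 windows of ABCG2 overlap and hold the same sites. The core bound by AHR, TNGCGTG, had no match in the 16 windows and was found in 4.52% of all. None of these motifs overlapped another in the stretches shown. These are matches of letters and not measured binding.

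The libraries held between 9472261 and 13308975 counts on genes, so that 3 counts, the level a count of 0 allows, corresponded to between 0.225 and 0.317 CPM, counting error only. Mitochondrial transcripts took 4.91% and 5.12% of the counts in DMSO and between 5.31% and 6.21% in the 6 treated libraries. CYP3A4, the overexpressed gene, stood at 198.1 and 206.5 CPM in DMSO, 287.2 and 215.6 after compound 4, 370.8 and 420.9 after compound 5, and 170.5 in each library of compound 6. It was thus highest with the compound that changed most members, and no parental cells were compared. All 7 hepatocyte markers on the list were expressed, and their summed level was 26600 to 29970 CPM in DMSO, 20840 to 24060 after compound 4, 20430 to 21480 after compound 5, and 20430 to 25360 after compound 6. Most of this sum was ALB, at 12560 to 18490 CPM, and the markers did not move as 1 group. APOA1 was called lower with all 3 compounds and AFP with compounds 4 and 5, TTR was called higher with compound 4 (log2 fold change 0.66, edgeR adjusted p = 0.0365), and ALB, SERPINA1, FGB, and HNF4A were not called with any compound. Among markers of other cells, 0 of 3 endothelial, 1 of 4 stellate, 2 of 3 leukocyte, and 2 of 3 cholangiocyte genes averaged at least 1 CPM. The leukocyte gene PTPRC and the stromal gene DCN had 0 CPM in every library, whereas LYZ, nearly all of the leukocyte sum, ranged from 1854 to 2993 CPM, and was called lower with compound 5 (log2 fold change -0.47, edgeR adjusted p = 0.0315). CD68 was called higher with compound 4 (0.80, edgeR adjusted p = 0.0079), as was the stellate gene PDGFRB (1.80, edgeR adjusted p = 0.0086). The cholangiocyte gene KRT19 was called higher with compounds 4, 5, and 6 (0.72, 0.56, and 0.85, edgeR adjusted p = 0.0097, 0.0154, and 0.0122). The summed leukocyte list was 2411 to 3031 CPM in DMSO and 1890 to 2064 CPM with compound 5, and the summed cholangiocyte list 219 to 242 CPM in DMSO and 254.8 to 301.6 CPM over the treated libraries. The endothelial sums were between 0.864 and 2.06 CPM in all libraries, and the stellate sums were 1.64 to 2.66 CPM in DMSO and 2.67 to 8.72 CPM over the treated libraries. The part of these shifts, in mitochondrial share, CYP3A4, and markers, in the results on transporters was not tested. The cells were of 1 established line, and in bulk RNA a change in some cells and a smaller change in all of them cannot be told apart.

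Of the 10 members, 9 passed the filter on low counts and SLCO1B1 did not. SLCO4C1 passed through its DMSO and compound 6 libraries, where it was highest. Genes were tested with edgeR's quasi-likelihood test in a single fit of the 13404 genes kept, and a call required an adjusted p (Benjamini-Hochberg) under 0.05. With compound 4, 3 of the 9 members were called, against 11.9% of all genes tested. One of the 9 was higher, against 6.5% of all genes, and 2 of the 9 were lower, against 5.42%. With compound 5, 7 of the 9 were called, against 28.1%, with 4 higher, against 13.9%, and 3 lower, against 14.2%. With compound 6, 1 of the 9 was called, against 4.4%, in the higher direction, where 2.8% of all genes were called, and none was lower, against 1.6%. The median log2 fold change of the 9 was 0.20 after compound 4, 0.39 after compound 5, and 0.33 after compound 6, and over all genes it was 9.88e-05, -0.03, and 0.0028. Within the 6 pumps the medians were 0.23, 0.53, and 0.34, and within the 3 SLCO genes tested they were -0.23, -1.02, and -0.45. The 3 comparisons share the DMSO libraries, and the members were chosen with earlier results of these data known. The counts set beside all genes are therefore descriptions and no test of the list. In the fits that left out a library, 1 group held a single library, which was assumed to vary like the other groups, and every test had fewer residual degrees of freedom, also where the library left out was not in the comparison.

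**Figure D1:**
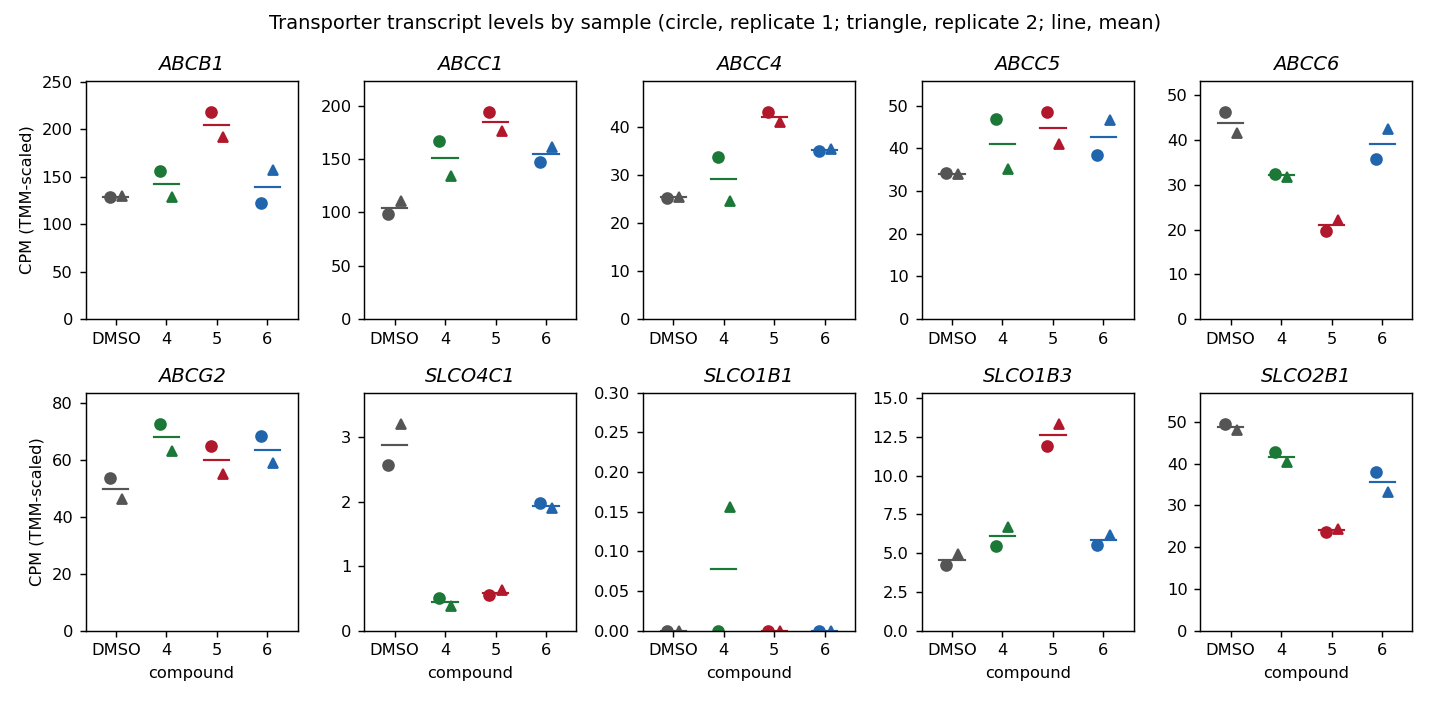
Level of each transporter transcript in the 8 libraries, in CPM after TMM scaling on axes that start at 0, for DMSO and compounds 4, 5, and 6. Circles are replicate 1, triangles replicate 2, and lines the mean of the 2; both compound 5 points lie farther from DMSO than all others in ABCB1, ABCC1, ABCC4, ABCC6, SLCO1B3, and SLCO2B1, and SLCO1B1 has counts in 1 library.

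ABCC1 encodes MRP1, a pump for glutathione conjugates, leukotrienes, and many anticancer drugs (ENSG00000103222, chr16:15949577-16143074, plus strand; these and all further gene positions are from GENCODE 29 on GRCh38). Its level was 98.3 and 110.6 CPM in the DMSO libraries, 167.2 and 134.3 after compound 4, 194 and 176.1 after compound 5, and 147.3 and 161.6 after compound 6. All 6 treated libraries were above both DMSO libraries. The rise was 1.44-fold with compound 4 (log2 fold change 0.53 ± 0.13 SE, edgeR adjusted p = 0.0234). With compound 5 it was 1.77-fold (0.82 ± 0.13, adjusted p = 0.0013). With compound 6 it was 1.48-fold (0.56 ± 0.13, adjusted p = 0.0365). The call with compound 5 was kept in each setting tried. The other calls were lost in fits with 1 library fewer, where the log2 fold change stayed between 0.36 and 0.69 with compound 4 and between 0.48 and 0.66 with compound 6. With compound 4 the edgeR adjusted p was 0.166 without DMSO replicate 1, 0.0897 without DMSO replicate 2, and 0.0823 without compound 4 replicate 1. With compound 6 it was 0.24 and 0.158 without DMSO replicates 1 and 2, 0.0625 and 0.0616 without compound 5 replicates 1 and 2, 0.314 without compound 6 replicate 2, and 0.0518 when the replicate number was a block.

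ABCB1 encodes P-glycoprotein, the broad-range drug pump of the canalicular membrane (ENSG00000085563, chr7:87503633-87713323, minus strand). Its level was 128.2 and 130.1 CPM in DMSO, 156 and 128.6 after compound 4, 218.2 and 191.9 after compound 5, and 122.8 and 156.7 after compound 6. Both compound 5 libraries were above the other 6, and the compound 4 and compound 6 libraries overlapped with DMSO. ABCB1 rose 1.59-fold with compound 5 (log2 fold change 0.67 ± 0.14 SE, edgeR adjusted p = 0.006). This edgeR adjusted p was 0.0509 without DMSO replicate 1 and 0.0578 without compound 5 replicate 1, with log2 fold changes between 0.60 and 0.76 over the fits that left out a library. The log2 fold change was 0.14 with compound 4 (95% interval -0.17 to 0.45) and 0.12 with compound 6 (-0.19 to 0.42), and neither was called. These small values turned to -0.0059 without compound 4 replicate 1 and to -0.06 without compound 6 replicate 2.

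ABCC4 encodes MRP4, a pump for cyclic nucleotides, bile acids, and nucleotide analogues in the basolateral membrane of hepatocytes (ENSG00000125257, chr13:95019829-95301475, minus strand). It was at 25.3 and 25.5 CPM in DMSO, 33.9 and 24.6 after compound 4, 43.2 and 41.1 after compound 5, and 35 and 35.5 after compound 6. The compound 5 libraries were the highest of the 8, the compound 6 libraries lay between them and DMSO, and the compound 4 libraries fell on both sides of DMSO. The rise with compound 5 was 1.66-fold (log2 fold change 0.73 ± 0.15 SE, edgeR adjusted p = 0.0051) and was called in each setting tried. With compound 6 the log2 fold change was 0.47 (95% interval 0.14 to 0.80, edgeR adjusted p = 0.102). This adjusted p was 0.027 without compound 4 replicate 1, 0.0225 without compound 4 replicate 2, 0.0362 with no filter on low counts, and 0.0429 in a fit of only the groups compared. With compound 4 it was 0.20 (-0.13 to 0.53), not called, and -0.05 without compound 4 replicate 1.

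ABCC5, which encodes MRP5, a further pump for cyclic nucleotides (ENSG00000114770, chr3:183919934-184018015, minus strand), stood at 34.2 and 33.9 CPM in DMSO, 46.8 and 35.3 after compound 4, 48.5 and 41.1 after compound 5, and 38.5 and 46.7 after compound 6. All treated libraries were above DMSO, by little in compound 4 replicate 2, and no difference was called. The log2 fold change was 0.27 with compound 4 (95% interval -0.08 to 0.62), 0.39 with compound 5 (0.04 to 0.74), and 0.33 with compound 6 (-0.03 to 0.68). For compound 5 the edgeR adjusted p of 0.0855 became 0.0355 without compound 4 replicate 1, 0.0298 without compound 4 replicate 2, 0.025 with no filter on low counts, and 0.011 in a fit of only the groups compared.

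ABCG2 encodes BCRP, a pump for sulphate conjugates, urate, and several cytostatic drugs (ENSG00000118777, chr4:88090264-88231322, minus strand). It was at 53.8 and 46.1 CPM in DMSO, 72.7 and 63 after compound 4, 65 and 55.1 after compound 5, and 68.4 and 58.8 after compound 6. Every treated library was above both DMSO libraries, and the DMSO replicates differed by more than the gap between the lower compound 5 library and the higher DMSO library. With compound 4 the log2 fold change was 0.44 (95% interval 0.14 to 0.74) at an edgeR adjusted p of 0.0592, which was 0.0221 with the replicate block, 0.0179 with no filter on low counts, and 0.0351 without compound 4 replicate 2. The values with compound 5 (0.27, -0.04 to 0.57) and compound 6 (0.35, 0.05 to 0.65) were not called.

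ABCC6 encodes MRP6, a pump of the basolateral hepatocyte membrane whose loss causes the calcification disorder pseudoxanthoma elasticum (ENSG00000091262, chr16:16148928-16223522, minus strand). It was the one pump of the 6 that fell. Its level was 46.3 and 41.5 CPM in DMSO, 32.5 and 31.8 after compound 4, 19.8 and 22.1 after compound 5, and 35.9 and 42.6 after compound 6. The compound 5 libraries were the lowest, the compound 4 libraries came next, and a compound 6 library lay between the DMSO libraries. With compound 5 ABCC6 fell to 0.479 of the DMSO level (log2 fold change -1.06 ± 0.13 SE, edgeR adjusted p = 0.0004065), a call kept in each setting tried. With compound 4 it was at 0.732 of DMSO (-0.45 ± 0.13, edgeR adjusted p = 0.0452). That call was lost with the replicate block (edgeR adjusted p = 0.0555), with DESeq2 (0.0665), and in a fit of only the groups compared (0.0579). It was also lost, at log2 fold changes between -0.53 and -0.37, without DMSO replicate 1 (edgeR adjusted p = 0.234) or 2 (0.128), compound 4 replicate 1 (0.0735) or 2 (0.129), or compound 5 replicate 1 (0.0754) or 2 (0.0691). With compound 6 the log2 fold change was -0.16 (95% interval -0.44 to 0.12) and was not called.

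ABCC6 shares sequence with its pseudogenes, which makes the split of reads between them uncertain. Of the 31-base words in its transcripts, 22.8% occur in another gene, 18.8% in ABCC6P1 and 11% in ABCC6P2. ABCC6P1 held 239 and 274 estimated counts in DMSO, 218 and 306 after compound 4, 153 and 152 after compound 5, and 221 and 295 after compound 6. ABCC6P2 held 25 and 28 counts in DMSO, 7 and 6 after compound 4, 8 and 18 after compound 5, and 16 in each library after compound 6. ABCC6P1 fell with compound 5 (log2 fold change -0.83 ± 0.16 SE, edgeR adjusted p = 0.0036), and ABCC6P2 fell with compound 4 (-2.14 ± 0.47, adjusted p = 0.0144). With the counts of ABCC6 and both pseudogenes summed, the log2 fold change with compound 5 was -0.98 and remained called, and that with compound 4 was -0.36 (edgeR adjusted p = 0.0575).

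**Figure D2:**
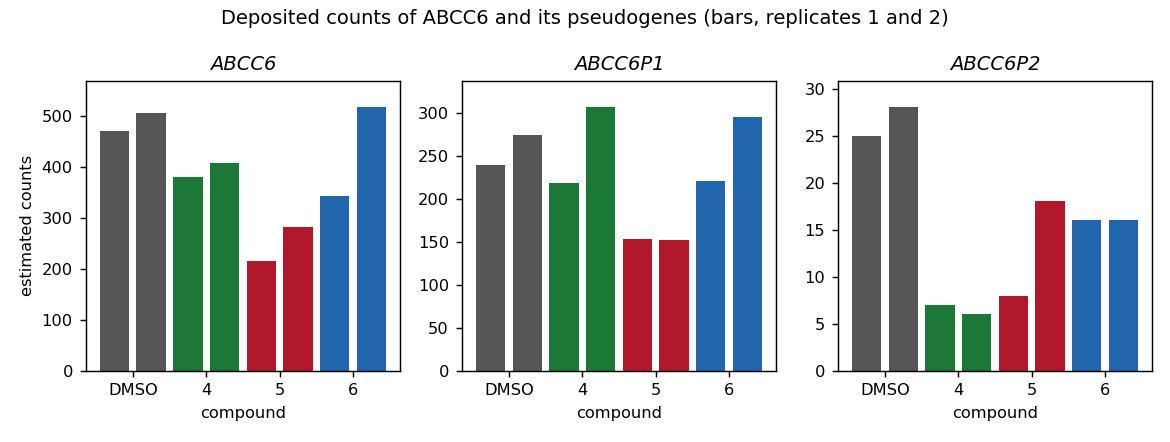
Estimated counts as deposited, not scaled for library size, for ABCC6, ABCC6P1, and ABCC6P2, with 1 bar per library in the order DMSO, compounds 4, 5, and 6 (replicates 1 and 2) and each axis starting at 0. ABCC6 and ABCC6P1 are lowest with compound 5, and ABCC6P2 is lowest with compound 4, at 7 and 6 counts.

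SLCO1B3 encodes OATP1B3, the liver uptake carrier of bile acids and statins that is also found in several carcinomas (ENSG00000111700, chr12:20810702-20916911, plus strand). Its level was 4.23 and 4.93 CPM in DMSO, 5.47 and 6.71 after compound 4, 11.9 and 13.4 after compound 5, and 5.53 and 6.18 after compound 6. All treated libraries were above DMSO, and the compound 5 libraries were well above the other 6. The rise with compound 5 was 2.75-fold (log2 fold change 1.46 ± 0.19 SE, edgeR adjusted p = 0.0005951), the largest rise among the 9 members tested, and it was called in each setting tried. With compound 4 the log2 fold change was 0.41 (95% interval -0.05 to 0.86), and with compound 6 it was 0.35 (-0.11 to 0.81), neither called. The read-through row AC011604.2, which overlaps SLCO1B3, holds 53.4% of the 31-base words of SLCO1B3. This row had between 0 and 7 counts in a library, against 43 to 170 for SLCO1B3. With both rows summed, the change with compound 5 remained called.

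SLCO1B1 encodes OATP1B1, the main statin carrier of normal hepatocytes (ENSG00000134538, chr12:21131202-21239246, plus strand). It had 0 counts in 7 libraries and 2 counts, 0.156 CPM, in compound 4 replicate 2, all at or below the level that a count of 0 allows. No fold or test can be given. The hepatocyte markers on the list were expressed in the same libraries, and SLCO1B1 shares 14.5% of its 31-base words with other genes, 11.3% with the row AC022335.1, which had 0 counts in every library.

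SLCO2B1 encodes OATP2B1, a carrier of sulphated steroids and drugs (ENSG00000137491, chr11:75100563-75206549, plus strand). Its level was 49.5 and 48 CPM in DMSO, 42.7 and 40.3 after compound 4, 23.7 and 24.3 after compound 5, and 38.1 and 33.2 after compound 6. Every treated library was below both DMSO libraries, and the 4 groups did not overlap. With compound 5 SLCO2B1 fell to 0.492 of DMSO (log2 fold change -1.02 ± 0.12 SE, edgeR adjusted p = 0.0002867), in each setting tried. With compound 6 the value was -0.45 (95% interval -0.71 to -0.20, edgeR adjusted p = 0.051). That p moved to 0.0315 and 0.0365 without compound 4 replicates 1 and 2, 0.0463 without compound 6 replicate 1, 0.0445 with library sizes alone, 0.0391 with no filter on low counts, 0.0496 with at least 10 counts in every library, and 0.049 with only the groups compared. With compound 4 it was -0.23 (95% interval -0.48 to 0.02), not called.

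SLCO4C1 encodes OATP4C1, known as the kidney carrier of digoxin and thyroid hormone (ENSG00000173930, chr5:102233986-102296549, minus strand). It held 26 and 39 counts in DMSO, 6 and 5 after compound 4, 6 and 8 after compound 5, and 19 and 23 after compound 6. In CPM these were 2.56 and 3.21, 0.513 and 0.39, 0.55 and 0.628, and 1.98 and 1.89. The compound 4 and compound 5 libraries were all below the compound 6 libraries, which were below DMSO. SLCO4C1 fell to 0.159 of DMSO with compound 4 (log2 fold change -2.66 ± 0.42 SE, edgeR adjusted p = 0.0033). It fell to 0.207 of DMSO with compound 5 (-2.27 ± 0.41, adjusted p = 0.0028). Both calls were kept in each setting that retained the gene. A minimum of 10 counts in every library removed it, so that setting could not check these calls. SLCO4C1 passed the main filter through its DMSO and compound 6 libraries, since its counts with compounds 4 and 5 were all under 10. The difference with compound 6 was not called (-0.58, 95% interval -1.35 to 0.20).

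**Figure D3:**
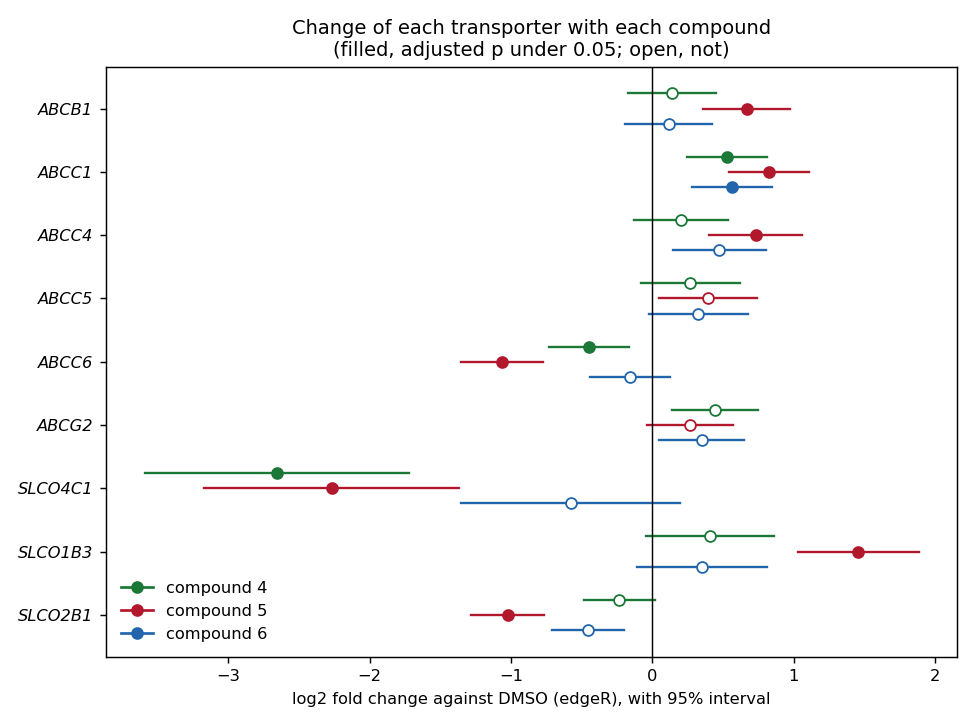
Log2 fold change against DMSO with its 95% interval (lines) from edgeR for the 9 transporters tested, in green for compound 4, red for compound 5, and blue for compound 6. Filled points have an adjusted p under 0.05; the 7 filled compound 5 points reach from -2.27 in SLCO4C1 to 1.46 in SLCO1B3, and ABCC1 is filled for all 3 compounds.

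The compounds were then compared with each other for the same 9 genes, in 3 pairs, at IC50 doses that were close but not matched in molar terms. The parts of structure and of dose in the differences were not tested. Compound 5, with its ethylidene bridge and second tert-butyl group on each ring, differed from compound 4 in 5 of the 9 members, against 13.9% of all genes. SLCO1B3 was 2.07-fold higher (log2 difference 1.05 ± 0.19 SE, edgeR adjusted p = 0.0093). SLCO2B1 was at 0.579 of its level with compound 4 (-0.79 ± 0.12, adjusted p = 0.0056) and ABCC6 at 0.654 (-0.61 ± 0.13, adjusted p = 0.0176). ABCB1 was 1.44-fold higher (0.53 ± 0.14, adjusted p = 0.0341), and so was ABCC4 (0.53 ± 0.15, adjusted p = 0.0396). Each of these calls missed the threshold in at least 1 fit with a library fewer, where the log2 differences were 0.91 to 1.22 for SLCO1B3, -0.82 to -0.75 for SLCO2B1, -0.70 to -0.52 for ABCC6, 0.40 to 0.67 for ABCB1, and 0.33 to 0.78 for ABCC4. The adjusted p for SLCO1B3 was 0.0542 and 0.0778 without compound 5 replicates 1 and 2, and that for SLCO2B1 0.0592 without compound 5 replicate 1. For ABCC6 it was 0.0541 without compound 4 replicate 2, and 0.14 and 0.0798 without compound 5 replicates 1 and 2. For ABCB1 it was 0.0582 without DMSO replicate 1, 0.142 without compound 4 replicate 2, 0.193 and 0.0925 without compound 5 replicates 1 and 2, 0.0525 with library sizes alone, and 0.0547 with only the groups compared. For ABCC4 it was 0.0637 and 0.0544 without DMSO replicates 1 and 2, 0.176 without compound 4 replicate 2, 0.172 and 0.132 without compound 5 replicates 1 and 2, 0.0531 with upper-quartile scaling, 0.0617 with library sizes alone, and 0.0879 with only the groups compared. The intervals for the other 4 were 0.02 to 0.58 for ABCC1, -0.22 to 0.47 for ABCC5, -0.48 to 0.12 for ABCG2, and -0.76 to 1.54 for SLCO4C1.

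Against compound 6, compound 5 also differed in 5 of the 9 members, where 9.91% of all genes were called. SLCO1B3 was 2.15-fold higher (log2 difference 1.11 ± 0.19 SE, edgeR adjusted p = 0.0077) and ABCB1 1.47-fold higher (0.55 ± 0.14, adjusted p = 0.0341). ABCC6 was at 0.534 of the compound 6 level (-0.90 ± 0.13, adjusted p = 0.0044), SLCO2B1 at 0.675 (-0.57 ± 0.12, adjusted p = 0.0163), and SLCO4C1 at 0.309 (-1.69 ± 0.43, adjusted p = 0.0337). These calls also missed the threshold in some fits with a library fewer, where the log2 differences were 1.02 to 1.21 for SLCO1B3, 0.39 to 0.76 for ABCB1, -1.02 to -0.76 for ABCC6, -0.65 to -0.47 for SLCO2B1, and -1.80 to -1.60 for SLCO4C1. The adjusted p for SLCO1B3 was 0.0646 without compound 5 replicate 2 and 0.0632 without compound 6 replicate 1, and that for ABCC6 0.0616 without compound 5 replicate 1. For SLCO2B1 it was 0.121 and 0.0965 without compound 5 replicates 1 and 2 and 0.113 without compound 6 replicate 1. For ABCB1 it was 0.0609 and 0.0504 without DMSO replicates 1 and 2, 0.213 and 0.0881 without compound 5 replicates 1 and 2, 0.222 without compound 6 replicate 1, and 0.0554 with library sizes alone. For SLCO4C1 it was between 0.057 and 0.168 without any of the DMSO, compound 5, or compound 6 libraries, and 0.12 with DESeq2. The intervals for the other 4 were -0.02 to 0.54 for ABCC1, -0.06 to 0.58 for ABCC4, -0.28 to 0.41 for ABCC5, and -0.38 to 0.22 for ABCG2.

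Between compounds 4 and 6, which differ by tert-butyl against cyclohexyl, no member was called with edgeR's test, where 0.0448% of all genes were, and DESeq2 called 0 of the 9. At an unadjusted p under 0.05 there were 2 of the 9, SLCO4C1 and ABCC6, where 9.81% of all genes were. SLCO4C1 was at 0.237 of its compound 6 level with compound 4 (log2 difference -2.08, 95% interval -3.06 to -1.10, edgeR adjusted p = 0.179). This adjusted p was 0.009 with no filter on low counts and 0.316 with DESeq2. The ABCC6 interval was -0.58 to -0.0066, and the remaining 7 intervals included 0, reaching from -0.60 for ABCC4 to 0.50 for SLCO1B3.

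The order of the transcript levels in DMSO was read per kilobase of the longest coding transcript in GENCODE 29. ABCB1 was highest at 27.0 ± 0.28 CPM per kb (SD, n = 2), followed by ABCC1 at 15.8 ± 1.33. ABCG2 (11.1 ± 1.21) and SLCO2B1 (10.9 ± 0.24) came next and did not differ beyond the spread of their replicates. ABCC6 was at 7.64 ± 0.59, ABCC5 at 5.75 ± 0.026, and ABCC4 at 4.34 ± 0.021 CPM per kb, with ranges that did not overlap. SLCO1B3 (1.61 ± 0.17) and SLCO4C1 (0.54 ± 0.086) were lower, and SLCO1B1 was at 0. Per kilobase of all exons joined, SLCO2B1 (4.71) was below both ABCG2 (9.9) and ABCC6 (5.8), so its place rests on the length used. With compound 5, ABCB1 was at 42.9 ± 3.9, SLCO2B1 at 5.34 ± 0.11, SLCO1B3 at 4.45 ± 0.36, and ABCC6 at 3.65 ± 0.29 CPM per kb, so that SLCO1B3 was above ABCC6 with this compound and below it in DMSO. Over all exons joined, SLCO1B3 (3.57) was also above SLCO2B1 (2.32) with compound 5.

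**Figure D4:**
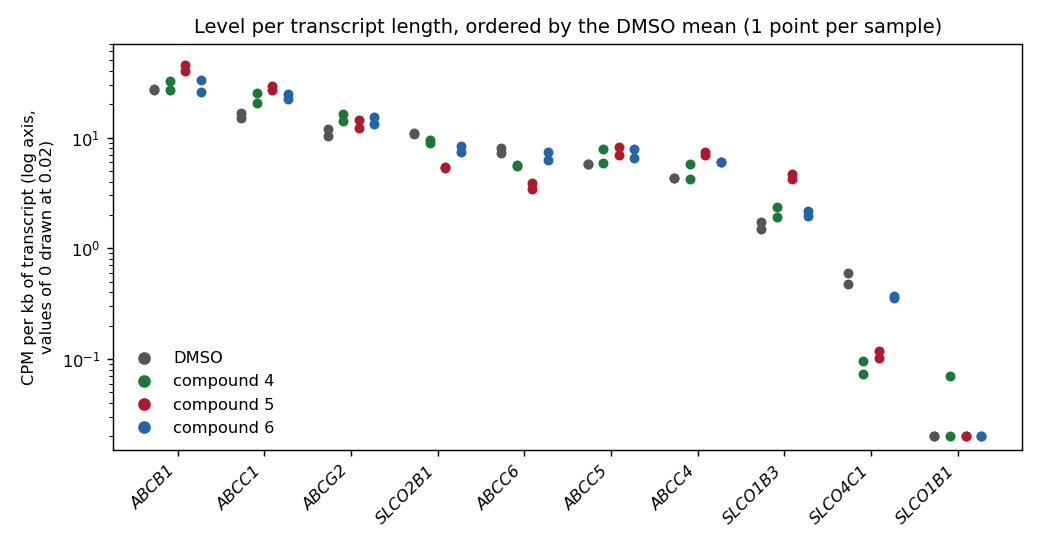
CPM per kb of the longest coding transcript on a log axis for the 10 transporters, ordered by their DMSO mean, with 1 point per library (grey DMSO, green compound 4, red compound 5, blue compound 6) and values of 0 drawn at 0.02. In DMSO the detected levels reach from 27.0 for ABCB1 to 0.54 for SLCO4C1, and SLCO1B1 is at 0. The red points of SLCO2B1 and ABCC6 lie below those of the other groups.

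Relatives of the members were counted on lists of the same families. Of 21 other ABCB, ABCC, and ABCG genes, 14 were tested. With compound 4, 2 were higher, where 6.5% of all genes were. With compound 5, 1 was higher and 1 lower, against 28.1% of all genes called in either direction. With compound 6, 2 were higher, against 2.8%. ABCC2, the canalicular pump for conjugates, rose with all 3 compounds, with log2 fold changes of 0.78, 1.19, and 0.81. ABCC3, a basolateral pump for glucuronides, rose by 1.27 with compound 4 and 1.24 with compound 6, and ABCB9, a lysosomal peptide transporter, fell by 0.53 with compound 5. The medians of the list were 0.10, -0.06, and 0.16. Of 8 other SLCO genes only SLCO4A1, a thyroid hormone carrier, passed the filter, and it was called with compounds 4 (0.64) and 5 (0.59) and not with compound 6 (0.19). These genes, and those in the next paragraphs on lists, are named because they make up the counts, after their values were seen, and their calls are from the fit without the replicate block, with no alternative setting run for single genes of the lists.

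Among 17 other carriers of drugs and bile acids, 12 were tested. With compound 4, 2 were higher, where 6.5% of all genes were, SLC51B (log2 fold change 1.85) and SLC22A18 (0.82). With compound 5, 3 were higher and 4 lower, against 13.9% and 14.2% of all genes, the higher ones being SLC51B (3.05), SLC51A (1.99), and SLC22A18 (0.60). SLC51A and SLC51B encode the subunits of the basolateral bile acid exporter OST. The lower ones were SLC28A1 (-2.20), SLC29A1 (-0.45), and SLC29A2 (-1.27), which carry nucleosides, and the organic anion carrier SLC22A9 (-1.28). With compound 6, SLC51B was called (0.97), against 2.8% of all genes higher. SLC22A18 with compound 6 had a log2 fold change of 0.81 at an edgeR adjusted p of 0.0506. The medians of the list were -0.12, -0.25, and -0.09.

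Of 17 regulators of transporter genes, namely transcription factors and the NRF2 inhibitor KEAP1, 15 were tested. AHR and NR0B2, the corepressor SHP, rose with each compound, AHR by 0.61, 0.98, and 0.70 and NR0B2 by 1.09, 1.31, and 0.73 on the log2 scale with compounds 4, 5, and 6. With compound 5, 7 were higher and none lower, against 13.9% and 14.2% of all genes. Besides AHR and NR0B2 these were NFE2L2, which encodes NRF2 (0.73), KEAP1 (0.28), ARNT (0.43), HIF1A (0.61), and CEBPB (1.31). CEBPB was uneven between the compound 5 libraries, at 112 and 218.3 CPM, against 72.4 and 61.4 in DMSO. With compound 4, 2 were higher, against 6.5% of all genes, and 1 lower, against 5.42%, namely NR1H4, which encodes the bile acid receptor FXR and fell by 0.91. With compound 6, 2 were higher and none lower, against 2.8% and 1.6%. The list medians were 0.08, 0.28, and 0.12. Among known targets of PXR and CAR, 6 of 9 genes were tested, and 3, 4, and 2 of these were higher with compounds 4, 5, and 6, with none lower. The shares of all genes that were higher, 6.5%, 13.9%, and 2.8%, are the background for these and for the next lists. CYP3A5 rose with all 3 compounds (3.01, 1.23, and 1.41) and so did CYP2B6 (1.21, 1.58, and 1.38), joined by UGT1A1 with compound 4 (1.495) and ALAS1 (0.40) and POR (0.55) with compound 5. Among targets of AHR, 3 of 6 were tested, and CYP1A1 alone was called, higher by 4.17, 1.36, and 2.67. Among targets of NRF2, 8 of 8 were tested, and GCLC, GCLM, SRXN1, TXNRD1, and SLC7A11 were higher with each compound, with list medians of 0.62, 1.42, and 0.69. HMOX1 fell by 0.36 with compound 5.

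ABCC1 was the one member called with all 3 compounds. Among the 12692 other genes tested with a mean of at least 1 CPM, the genes whose log2 CPM over the 8 libraries followed it most closely were STAM (Pearson r = 0.987), HK1 (0.987), and LUCAT1 (0.987). These values are descriptions over libraries that share groups and depth.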

How the data were processed

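mRNA of CYP3A4-overexpressing HepG2 cells was sequenced from strand-specific, paired-end libraries. The authors estimated transcript abundance with Salmon 1.5.0 on GENCODE 38 and summed it to genes with tximeta 1.16.0, and deposited the estimated counts per gene in whole numbers without normalization. The column names mark replicate 1 of compounds 4 and 5 as merged from 2 entries each, and what was merged is not given in the sources used here. Totals ranged from 9472261 to 13308975 counts.

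For the tests edgeR 4.0.16 was run under R 4.3.3 (TMM, factors 0.958 to 1.04, filterByExpr, quasi-likelihood test, all 8 samples in 1 fit) and DESeq2 1.42.0 as an alternative. P-values were adjusted over the 13404 genes tested, and 95% intervals use the SE derived from the F statistic. The procedure was tested on simulated data. Members and lists were chosen with earlier results of these data known. The named genes were the 10 members, the 3 genes most like the member called with all 3 compounds, rows sharing over 10% of a member's 31-base words, and list genes that make up a count. CYP3A4, marker genes, and SLC22A18 with compound 6 were named besides, the last 2 after their values were seen. Shared words were counted on GENCODE 29, and upstream sequences are RefSeq's (GRCh38.p14).

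The labels number replicates by day 1 and day 2, whereas the methods state 1 exposure of 24 h. Deviations of same-numbered samples correlated between -0.083 and 0.16 over genes, and the fit with the number as a block was run for the members and the counts over all genes, and is given beside each member whose call it changed. Replicates of a group differed by more than counting noise (chi-square per degree of freedom 4.33 to 12.8), and nothing states that they were separate cultures, so p-values measure the spread between these samples, which may be technical. Other alternatives were RLE, upper-quartile, and library-size scaling, no filter, at least 10 counts in every sample, only the groups compared, a threshold of 0.01, and leaving out each library. The 2 summed rows were added after the data were seen. ABCC1 had no entry among the promoters.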

Additional observations from a re-analysis of the deposited data

How the results depend on the processing

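Of the 11 calls of members against DMSO, 7 were kept under each alternative that gave a value, namely SLCO4C1 with compound 4 and ABCC1, ABCC4, ABCC6, SLCO4C1, SLCO1B3, and SLCO2B1 with compound 5. Of the 10 calls between compounds, 0 were. SLCO4C1 had no value where at least 10 counts in every library were required, so its calls were not checked there. Outside the fits that left out a library, no direction was reversed. Without compound 4 replicate 1, the uncalled values with compound 4 turned to -0.0059 for ABCB1 and -0.047 for ABCC4, and without compound 4 replicate 2 they were 0.287 and 0.43. For ABCB1 with compound 6 the value was -0.064 without compound 6 replicate 2 and 0.306 without replicate 1.

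The count of members called with compound 6, 1 of 9, was 2 with library sizes alone, 3 without the filter, 2 with at least 10 counts in every library, 0 with the replicate block, 3 with only the groups compared, and 0 at 0.01. Members called between compounds 5 and 4, 5 in all, were 3 with library sizes alone, 3 with only the groups compared, and 2 at 0.01. At 0.01, 1 member was called with compound 4, and 2 between compounds 5 and 6. Without the filter, 1 was called between compounds 4 and 6.

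Over all genes, the counts at 0.01 were 591, 1809, and 92 with compounds 4, 5, and 6, 279 for compound 5 against 4, 282 for 5 against 6, and 1 for 4 against 6. Without the filter they were 1441 with compound 6, 2812 for 5 against 4, 2117 for 5 against 6, and 294 for 4 against 6. With only the groups compared they were 897 for 5 against 4 and 2 for 4 against 6, and DESeq2 gave 72 for the latter.

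Leaving out 1 library, which left a group with a single library assumed to vary like the others, gave 335 to 1703 genes with compound 4, 1680 to 4519 with compound 5, and 1 to 1096 with compound 6. For 5 against 4 the range was 111 to 2709, for 5 against 6 it was 143 to 1875, and for 4 against 6 it was 0 to 117. Members called ranged from 1 to 3, 6 to 8, and 0 to 3 with compounds 4, 5, and 6, from 0 to 6 for 5 against 4, and from 1 to 5 for 5 against 6. The cause of these changes was not tested.

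Library-size scaling shifted the median of all genes with compound 5 to -0.14, from -0.03 with TMM, and the share of calls that were higher from 49.3% to 33.3%. Upper-quartile scaling gave 36.6%, RLE 53.1%, and DESeq2 56.8%. For 5 against 4 this share was 49.5%, with 31.3% by library size, 33% by upper quartile, 56.8% by RLE, and 63.8% by DESeq2, and for 5 against 6 it was 48%, with 28.4%, 28.7%, 54.3%, and 60.6%. Under these scalings the 7 members called with compound 5 kept their direction and call. The replicate block ended the calls of ABCC6 with compound 4 and ABCC1 with compound 6, added ABCG2 with compound 4, and changed no other member's call. SLCO4C1, at 5 to 39 counts, and SLCO1B1 are limited by depth.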
